A study of Mus musculus with 6 samples.

Results

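The genes described here encode nucleoporins, the proteins of the nuclear pore complex, and the receptors and Ran cycle proteins that carry cargo through it. A gene was included when its symbol in the platform's probe-gene table was a numbered Nup, Kpna, Xpo (Xpot included) or Ipo symbol, or one of a fixed set of further pore and transport genes such as Ran, Rcc1, Kpnb1, Ndc1 and Cse1l. The rule used names only, but it was chosen with earlier results of these data known. It found 48 of the 19505 genes named on the array, each with a single probe set. Nup62, Nup214, Nup35, Nup58 and Tpr are not analysed here. Nup42 is not a member, but it was measured under its older symbol Nupl2 among the further transport genes.

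The pore is built from stacked rings of nucleoporins set in the nuclear envelope, with an outer ring of Y-shaped complexes, an inner ring, a channel lined by proteins rich in phenylalanine-glycine repeats, a nuclear basket and cytoplasmic filaments. Importins bind cargo in the cytoplasm and release it in the nucleus when they bind Ran carrying GTP, and exportins bind cargo and that form of Ran together and release both in the cytoplasm. The chromatin-bound exchange factor Rcc1 loads Ran with GTP, and Rangap1 with Ranbp1 has it hydrolysed on the other side of the envelope. The same Ran system acts on the mitotic spindle and on the rebuilding of the envelope after division.

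RNA was measured on 6 Affymetrix Clariom S arrays of lines derived from melan-a, an immortalized mouse melanocyte line with the C57BL/6J genotype. There were 2 arrays of mKitK641E(T), called T here, 2 of mKitK641E(PT), called PT, and 2 of mVec. The T and PT lines carry the receptor tyrosine kinase Kit with the activating substitution K641E and are labelled as melanoma transformed by it, with the titles c-kit(K641E)C3# for T and c-kit(K641E)hi exp for PT. The mVec line carries the control vector CD516B2 and is labelled as melanocytes. All 3 lines were grown in RPMI with serum and received no treatment. The sources used here do not give the promoter that drives the transgene or the meaning of T, PT, C3# and hi exp. Each group is 1 line, and nothing says that its arrays came from separate cultures, so p-values measure only the spread between the arrays of a line.

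The values are deposited log2 expression values, and each comparison is a difference of group means on that scale. A probe set counted as above background on an array when it exceeded 95% of the 5222 negative controls there, a limit between 8.74 and 9.16. Of the 48 members, 37 were above the limit on all 6 arrays, 6 on some arrays, and 5 on none (Kpna7, Ipo13, Nup210, Nup210l and Nup62cl). The melanocyte label was checked against Tyr, Tyrp1, Dct, Pmel, Mlana, Sox10, Mitf and Slc45a2. All but Mitf were below the limit on all 6 arrays, and Mitf was above it on the T arrays only, so these markers do not bear out the label.

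Most members were called higher in each Kit line than in mVec. In T, 40 of the 48 members were called higher by limma at an adjusted p under 0.05 and 0 lower, where 16.9% of all 22206 gene probe sets were called higher and 15.5% lower. In PT, 42 were called higher and 0 lower, where 17.9% of all probe sets were called higher and 18.0% lower. The median difference of the members was 1.28 in T and 1.59 in PT on the log2 scale, against 0.01 and 0.08 over all probe sets. Both lines were compared with the same mVec arrays, so the counts are not independent of each other.

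Calls were more frequent among bright probe sets. Among the 6898 probe sets whose mean over the 6 arrays was above the mean limit, a group to which 43 of the members belong, 38.0% were called higher and 22.5% lower in T, and 38.8% higher and 27.2% lower in PT. The median difference of these bright probe sets was 0.27 in T and 0.24 in PT. The arrays of T did not overlap those of mVec in 45 of the 48 members, against 61.6% of all probe sets and 85.7% of the bright ones. Those of PT did not in 46, against 64.8% and 88.2%, so the count without overlap is near that of other bright probe sets. A difference of at least 1 on the log2 scale with a call was found in 33 members in T, against 12.5% of all and 28.8% of bright probe sets, and in 37 in PT, against 13.0% and 30.6%.

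**Figure D1:**
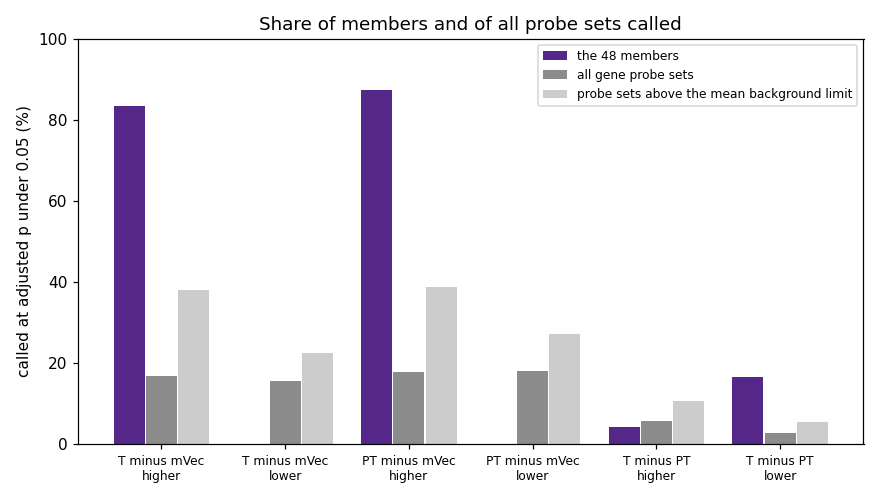
Share of the 48 members, of all 22206 gene probe sets and of the 6898 probe sets above the mean background limit that limma called higher or lower at an adjusted p under 0.05, as bars in percent for each comparison. Members were called higher against mVec in 83.3% (T) and 87.5% (PT) of cases and never lower, while T minus PT shows 4.17% higher and 16.7% lower.

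Some other gene groups also differed between the Kit lines and mVec. The 7 measured genes of a short mitosis list (Mki67, Cdk1, Cdc20, Aurka, Bub1, Plk1 and Top2a) were all called higher in both lines. Their summed level (linear values added, then log2) was 14.44 to 14.59 in T, 15.43 to 15.45 in PT, and 11.57 to 11.65 in mVec. On both arrays all 7 were above the limit in T and in PT, and 2 (Mki67 and Plk1) in mVec, so the mVec sum lies partly at background. Of 7 measured fibroblast markers, 5 were called lower in each Kit line and 1 higher, with a summed level of 10.64 on both T arrays, 9.92 to 10.15 in PT, and 16.82 to 17.0 in mVec. On both arrays 2 of the 7 were above the limit in T, 0 in PT, and 4 (Col1a1, Col3a1, Dcn and Fap) in mVec. Of 6 endothelial markers, 1 (Cdh5) was above the limit in mVec and called lower in both lines, and no leukocyte or keratinocyte marker (4 and 6 measured) was above it on both arrays of any group. The part of any of these in the members' differences was not tested.

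The RefSeq promoter table (GRCm38.p6) held 38 of the 48 members, and the 250 bases before each start were searched on both strands for 4 short motifs. A gene counted when any of its windows held the motif. The sequence CACGTG is an E-box that the growth regulator Myc and its partner Max are known to bind. It was found in 6 of the 38 (15.8%), against 7.92% of the 15691 array genes with a promoter in the table. Over all 27025 genes of the table the share was 6.86%. The 6 members are Ran, Xpot, Nup54, Nup188, Nup93 and Ranbp2. The 4 of them with the largest T minus mVec difference are shown, 5′ to 3′, with CACGTG in capitals.
Xpot, chr10:121626333-121626582, minus strand: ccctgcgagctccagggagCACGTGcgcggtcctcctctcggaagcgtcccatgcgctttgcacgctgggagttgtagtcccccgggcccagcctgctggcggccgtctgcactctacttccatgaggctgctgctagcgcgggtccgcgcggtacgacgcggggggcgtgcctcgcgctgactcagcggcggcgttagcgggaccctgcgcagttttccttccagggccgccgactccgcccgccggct
Ran, chr5:129019906-129020155, plus strand: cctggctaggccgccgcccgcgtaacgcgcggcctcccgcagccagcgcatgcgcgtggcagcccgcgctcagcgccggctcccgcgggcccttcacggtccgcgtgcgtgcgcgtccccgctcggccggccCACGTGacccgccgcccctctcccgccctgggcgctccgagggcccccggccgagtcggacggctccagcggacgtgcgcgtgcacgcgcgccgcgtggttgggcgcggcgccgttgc
Nup54, chr5:92435200-92435449, minus strand: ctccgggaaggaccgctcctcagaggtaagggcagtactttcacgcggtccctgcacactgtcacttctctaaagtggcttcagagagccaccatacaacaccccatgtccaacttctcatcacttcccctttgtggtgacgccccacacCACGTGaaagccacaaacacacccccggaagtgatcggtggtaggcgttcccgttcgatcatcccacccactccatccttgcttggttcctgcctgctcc
Nup188, chr2:30286166-30286415, plus strand: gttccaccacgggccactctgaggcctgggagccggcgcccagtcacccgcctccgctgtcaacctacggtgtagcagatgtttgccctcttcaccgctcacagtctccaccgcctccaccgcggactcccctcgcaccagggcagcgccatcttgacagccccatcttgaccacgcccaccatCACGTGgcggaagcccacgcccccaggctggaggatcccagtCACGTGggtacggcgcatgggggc
The window of Nup188 holds CACGTG at a pair of sites and the other windows shown hold it once. CCAAT, the box bound by NF-Y, was found in 17 of the 38 (44.7%, against 39.2% of array genes and 37.5% of all genes of the table). TTTGAA, the core of the cell cycle element CHR, was found in 9 (23.7%, against 16.1% and 18.3% of them). The E2F-type letters TTCGCGC or TTGGCGC were in 0 of the 38, against 4.91% of array genes and 3.66% of all genes of the table. The windows shown hold none of these other motifs, and a match is a description of letters, not a shown binding site.

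All 3 Ran cycle members were called higher in both lines. Ran, the GTPase whose bound nucleotide gives transport its direction, had log2 values of 15.81 and 15.76 in T, 15.65 and 15.82 in PT, against 13.22 and 13.24 in mVec. The Kit lines overlapped each other and stood far above mVec, with a difference of 2.56 ± 0.20 in T (standard error of the limma fit, as for every error below, with 2 arrays a group), which is 5.90-fold, and of 2.51 ± 0.20 in PT, 5.68-fold. Rcc1 had 12.02 and 12.86 in T, 11.79 and 12.51 in PT, against 8.47 and 8.19 in mVec. Its mVec arrays were below the background limit, so the fold is a bound against that limit, at least 10.8-fold in T (4.11 ± 0.33, adjusted p = 8.37e-06) and at least 8.85-fold in PT (3.82 ± 0.33, adjusted p = 9.55e-06). Ranbp1, which binds Ran-GTP and aids its hydrolysis, rose by 2.04 ± 0.22 in T and 2.27 ± 0.22 in PT. None of these 3 genes was called between T and PT.

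Among the importin alpha adaptors, which read the classical nuclear localization signal, Kpna2 changed the most. It had 15.29 and 15.19 in T, 15.87 and 16.08 in PT, against 12.69 and 12.75 in mVec. The 3 lines did not overlap, and Kpna2 was 5.74-fold higher in T (2.52 ± 0.20) and 9.56-fold higher in PT (3.26 ± 0.20) than in mVec. In T, 3 of the 6 were called higher (Kpna2, Kpna1 at 1.64 and Kpna4 at 1.35), while Kpna3 (0.16 ± 0.21, adjusted p = 0.637) and Kpna6 (0.10 ± 0.23, adjusted p = 0.811) did not pass, and the sign of both turned (-0.05 each) with quantile normalization. In PT, 5 of the 6 were called higher, among them Kpna3 (1.15 ± 0.21) and Kpna6 (0.94 ± 0.23, adjusted p = 0.00853), the last not called without mVec replicate 1 (adjusted p = 0.0713). In the direct test of T minus PT, Kpna3 was the 1 adaptor of the 6 that passed (-0.99 ± 0.21, adjusted p = 0.0198), and Kpna6 did not (-0.84 ± 0.23, adjusted p = 0.0538). The remaining one, Kpna7, known as an oocyte and embryo form, was below the limit on every array and was called in neither line, though in both with median centring.

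The importin beta family carries cargo directly or through the adaptors. Its main member Kpnb1, the partner of importin alpha, had 15.78 and 15.67 in T, 15.98 and 16.12 in PT, against 14.57 and 14.60 in mVec. The Kit lines lay above mVec without overlap, by 1.14 ± 0.20 (2.20-fold, adjusted p = 0.0014) in T and 1.46 ± 0.20 (2.76-fold, adjusted p = 0.000223) in PT. Ipo4, a carrier of histones and ribosomal proteins, had 8.44 and 9.40 in T, 10.14 and 10.25 in PT, against 8.0 and 7.51 in mVec. It was above the limit on 1 T array, on both PT arrays and on no mVec array. The rise was at least 2.29-fold in PT (2.44 ± 0.32). In T the difference was 1.16 ± 0.32 (adjusted p = 0.0178) with no fold given, and it was not called without T replicate 2 (0.68, adjusted p = 0.12) or mVec replicate 2 (0.92, adjusted p = 0.132).

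Among the members, this family held the 3 receptors with a T minus mVec value below 0. Ipo13 and Ipo8 were the members of the family called in neither line, at -0.08 and -0.36 in T and -0.37 and -0.48 in PT, with Ipo13 below the limit on every array and its sign in T turned by median centring (0.10) and by quantile normalization (0.15). Ipo9, an importin for histones and actin, ran apart, with means of 10.92 in T, 12.15 in PT and 11.51 in mVec. Its T minus mVec value of -0.59 ± 0.20 did not pass (adjusted p = 0.0506), and its PT minus mVec value of 0.63 ± 0.20 did (adjusted p = 0.035), though not without any single PT or mVec array (adjusted p from 0.0758 to 0.151) or with quantile normalization. Ipo5, an importer of ribosomal proteins and histones (0.93 in T and 1.18 in PT), Ipo11 (1.52 and 2.12) and Tnpo1, the carrier of many RNA-binding proteins (1.05 and 0.87), were called higher in both lines, Tnpo1 in PT not without PT replicate 1 (adjusted p = 0.0515).

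All 7 exportins among the members were called higher in each Kit line. Xpot, which exports tRNA, had 15.12 and 14.76 in T, 14.73 and 14.78 in PT, against 11.81 and 11.33 in mVec. It was 10.3-fold higher in T (3.37 ± 0.24) and 9.11-fold higher in PT (3.19 ± 0.24), with the Kit lines overlapping each other. Xpo4, a carrier of the translation factor eIF5A among others, had 11.90 and 12.19 in T, 12.48 and 12.54 in PT, against 8.70 and 8.86 in mVec. Its mVec arrays were below the limit, and the rise was at least 8.24-fold in T (3.26 ± 0.21) and at least 11.4-fold in PT (3.73 ± 0.21). Xpo5, which exports precursor microRNAs, followed at 2.81 ± 0.21 in T and 3.09 ± 0.21 in PT.

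The general exportin Xpo1 (CRM1), which reads leucine-rich export signals, had 14.22 and 13.96 in T, 14.73 and 14.88 in PT, against 13.10 and 12.93 in mVec. The 3 lines did not overlap, with rises of 1.08 ± 0.21 in T (adjusted p = 0.00285) and 1.79 ± 0.21 in PT (adjusted p = 8.37e-05). The T minus PT difference of Xpo1 did not pass (-0.72 ± 0.21, adjusted p = 0.0712). Cse1l, which returns importin alpha to the cytoplasm, had 12.98 and 12.64 in T, 13.59 and 13.82 in PT, against 11.47 and 11.25 in mVec. It too was in the order PT, T, mVec without overlap, 2.74-fold higher in T (1.45 ± 0.22) and 5.09-fold higher in PT (2.35 ± 0.22) than in mVec. Xpo6, the exporter of actin with profilin, had the smallest exportin difference in T, at 0.66 ± 0.21 in T (adjusted p = 0.0353), and 1.32 ± 0.21 in PT. Xpo7 differed by 1.29 and 1.21. The Xpo6 call in T was lost when any T or mVec array was left out (adjusted p from 0.0624 to 0.235) and with quantile normalization.

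**Figure D2:**
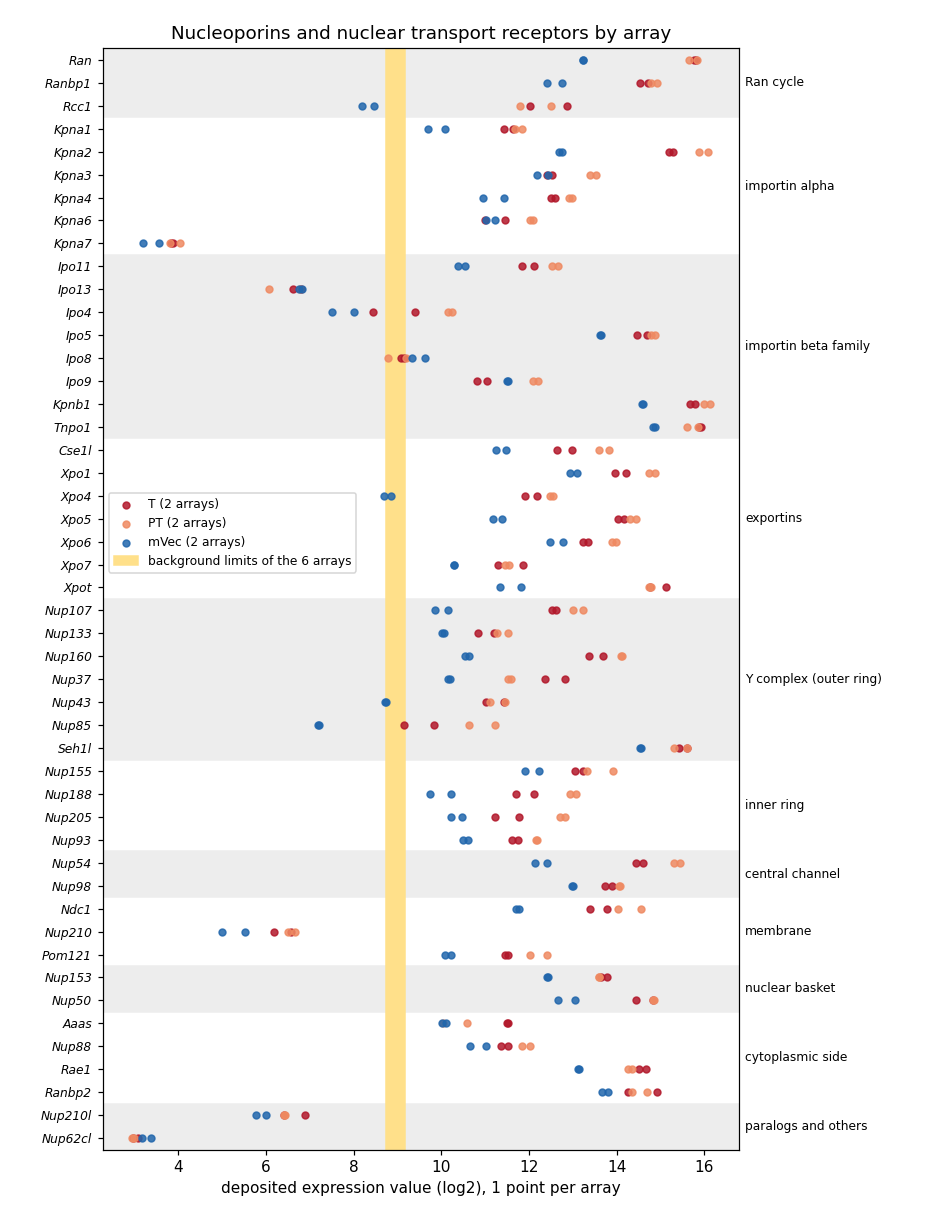
Deposited log2 values of the 48 members on each of the 6 arrays (x axis), 1 row per gene grouped by role, with T, PT and mVec as coloured points and the range of the background limits as a yellow band. Values can be compared between arrays of a gene, not between genes. Most genes show the mVec points to the left of all 4 Kit line points, with Ipo8, Ipo9, Ipo13, Kpna6 and Nup62cl among the exceptions.

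The Y complex is the scaffold of the outer ring. All 7 members assigned to it were called higher in both lines, with a median of 2.42 in T and 2.56 in PT. Its proteins Sec13 and Ahctf1, outside the member rule, were also measured. Ahctf1 was called higher in both lines (2.15 ± 0.24 in T and 2.23 ± 0.24 in PT). Sec13 was called higher in T (0.95 ± 0.31, adjusted p = 0.039) and not in PT (0.35 ± 0.31, adjusted p = 0.449). Nup107 had 12.52 and 12.62 in T, 13.00 and 13.23 in PT, against 9.85 and 10.14 in mVec. Both lines stood clear of mVec, 5.96-fold higher in T (2.57 ± 0.21) and 8.70-fold in PT (3.12 ± 0.21). Nup85 had 9.14 and 9.84 in T, 10.64 and 11.23 in PT, against 7.19 and 7.22 in mVec. With mVec below the limit, the rise was at least 1.40-fold in T (2.28 ± 0.29) and at least 3.82-fold in PT (3.73 ± 0.29).

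Nup37, a small propeller protein of the same complex, had 12.36 and 12.82 in T, 11.51 and 11.59 in PT, against 10.20 and 10.15 in mVec. Here T was the highest line, 5.33-fold above mVec (2.42 ± 0.22), and PT was 2.60-fold above it (1.38 ± 0.22). Nup160 differed by 2.94 in T and 3.52 in PT, Nup43 by 2.49 and 2.56 (at least 4.63-fold and 4.86-fold), and Nup133 by 0.97 and 1.35. Seh1l, which also serves the nutrient-sensing GATOR complex, had 0.97 and 0.91, and its PT call was lost without PT replicate 1 (adjusted p = 0.0514).

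The inner ring holds the membrane to the channel. All 4 of its measured nucleoporins were called higher in both lines, with medians of 1.14 in T and 2.02 in PT. Nup93, the hub of this ring, had 11.60 and 11.75 in T, 12.16 and 12.19 in PT, against 10.49 and 10.61 in mVec. It was 2.19-fold higher in T (1.13 ± 0.20) and 3.08-fold higher in PT (1.63 ± 0.20), without overlap among the 3 lines. Its T minus PT difference did not pass (-0.50 ± 0.20, adjusted p = 0.176). Nup205 had 11.77 and 11.22 in T, 12.70 and 12.82 in PT, against 10.46 and 10.22 in mVec. Its PT arrays lay well above its T arrays, 5.35-fold over mVec in PT (2.42 ± 0.24) and 2.23-fold in T (1.16 ± 0.24). Nup188, the paralog of Nup205, differed by 1.92 in T and 3.01 in PT. Nup155 differed by 1.07 and 1.55, and its T call was lost without mVec replicate 2 (adjusted p = 0.0744).

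The channel proteins Nup54 (2.24 ± 0.21 in T and 3.10 ± 0.21 in PT) and Nup98 (0.82 ± 0.20 and 1.06 ± 0.20), which is made from a precursor shared with the Y complex protein Nup96, were called higher in both lines. The T call of Nup98 was lost without mVec replicate 1 (adjusted p = 0.0557) and without mVec replicate 2 (0.0647). In the basket, Nup153 had 13.64 and 13.77 in T, 13.59 and 13.59 in PT, against 12.42 and 12.43 in mVec. The Kit lines lay close together and above mVec, by 1.27 ± 0.20 in T and 1.16 ± 0.20 in PT. Its partner Nup50, which binds importin alpha, rose by 1.77 and 1.97.

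The membrane nucleoporins anchor the pore. Ndc1 (1.85 ± 0.25 in T and 2.55 ± 0.25 in PT) and Pom121 (1.31 ± 0.22 and 2.06 ± 0.22) were called higher. Nup210, a transmembrane nucleoporin known to be switched on in some differentiating cells, had 6.56 and 6.19 in T, 6.51 and 6.66 in PT, against 5.0 and 5.53 in mVec. All 6 values were below the background limit, so no fold is given, although the differences of 1.11 ± 0.25 (adjusted p = 0.00629) and 1.32 ± 0.25 (adjusted p = 0.00186) were called, the first not without mVec replicate 1 (adjusted p = 0.0698).

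On the cytoplasmic side 3 of 4 members were called higher in T (Aaas, Rae1 and Ranbp2) and 3 in PT (Nup88, Rae1 and Ranbp2). Aaas, the protein ALADIN that binds Ndc1, had 11.49 and 11.53 in T, 10.03 and 10.59 in PT, against 10.10 and 10.02 in mVec. T stood above the other lines, by 1.45 ± 0.23 over mVec (adjusted p = 0.000831), while PT overlapped mVec (0.25 ± 0.23, adjusted p = 0.478). Nup88 was called in PT (1.11 ± 0.22, adjusted p = 0.00255) and had 0.61 ± 0.22 in T (adjusted p = 0.0593), a value that passed with median centring, among probe sets above background and with a trended robust prior. Rae1, an mRNA export factor, rose by 1.46 in T and 1.17 in PT. Ranbp2, the large filament protein that binds Ran, differed by 0.85 ± 0.26 (adjusted p = 0.0298) and 0.79 ± 0.26 (adjusted p = 0.0382). The Ranbp2 call in T was lost without T replicate 1 (0.53, adjusted p = 0.166), mVec replicate 1 (0.0909) and mVec replicate 2 (0.139), and in PT without any single PT or mVec array (adjusted p from 0.0567 to 0.21) and with quantile normalization. Of the paralogs named for their likeness to nucleoporins, Nup62cl and Nup210l were below the limit on all arrays, and Nup62cl was called in neither line. Nup210l was called in T (0.75 ± 0.23, adjusted p = 0.0305), a call lost without T replicate 1 (0.153), without either mVec replicate (0.188 and 0.0674) and with the trended robust prior. In PT it was not called (0.53 ± 0.23, adjusted p = 0.109), though it was with median centring and with quantile normalization.

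**Figure D3:**
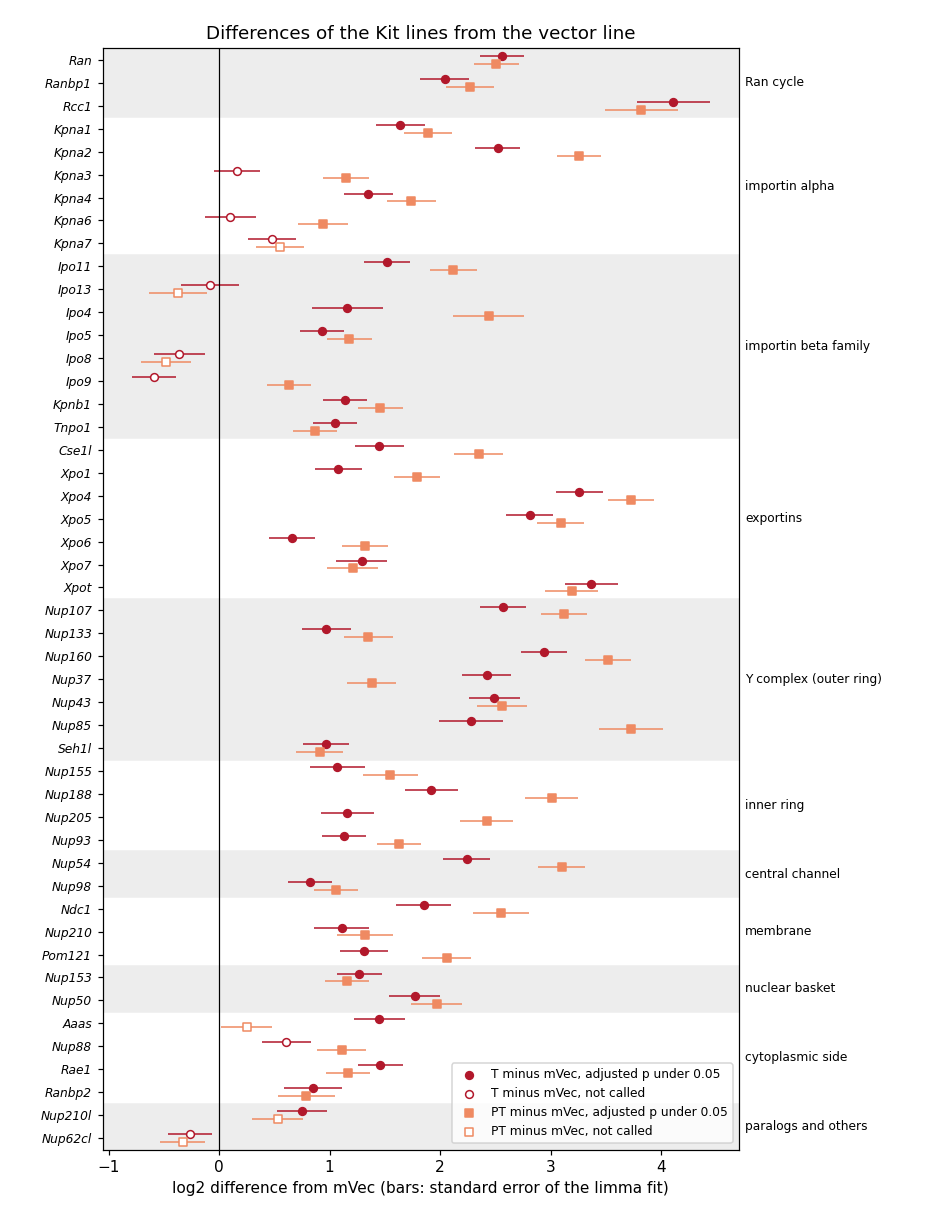
Log2 difference from mVec of each member in T (circles) and PT (squares), grouped by role, with bars for the standard error of the limma fit and open symbols where the adjusted p was not under 0.05. All Y complex, inner ring, exportin and Ran cycle members lie to the right of 0 with filled symbols in both lines, and differences run from -0.59 to 4.11 in T and from -0.48 to 3.82 in PT.

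Further pore and transport genes outside the member rule were also mostly higher. Of 24 measured, 18 were called higher in T and 15 in PT, and 0 lower in either, with medians of 1.13 and 1.14. That is 75.0% higher in T and 62.5% in PT, against 16.9% and 17.9% of all probe sets. Among the bright probe sets the shares were 38.0% and 38.8%. The list, like the members, was chosen with earlier results of these data known. Nupl2 (Nup42) was called higher in T (1.03 ± 0.28, adjusted p = 0.0179) and in PT (0.86 ± 0.28, adjusted p = 0.0371). Rangap1, the activator of the Ran GTPase, had 11.59 and 11.70 in T, 11.60 and 12.27 in PT, against 7.24 and 6.98 in mVec. It was below the limit in mVec, so that the rise was at least 6.24-fold in T (4.54 ± 0.26) and at least 7.64-fold in PT (4.83 ± 0.26). Nmd3, the adaptor that lets Xpo1 export large ribosomal subunits, was 9.06-fold higher in T and 13.3-fold higher in PT, and Heatr3, whose human counterpart takes part in importing ribosomal proteins, 12.7-fold and 11.3-fold higher. Rangrf, a Ran-binding protein, was at least 1.51-fold higher in T (3.69 ± 0.28), and in PT it was called with PT and mVec both below the limit.

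The nuclear envelope and lamina list, the surroundings of the pore, was mixed. Of its 19 measured genes, 9 were called higher and 3 lower in T, with a median of 0.30. In PT, 9 were called higher and 4 lower, with a median of 0.58. In T that is 47.4% higher and 15.8% lower, against 16.9% and 15.5% of all probe sets and 38.0% and 22.5% of the bright ones. In PT it is 47.4% and 21.1%, against 17.9% and 18.0% of all and 38.8% and 27.2% of bright ones. The largest fall in both lines was that of Tmem43, -1.93 ± 0.23 in T and -2.65 ± 0.23 in PT. Vrk1, a kinase that acts on the chromatin tether Banf1, had the largest difference of the list in PT, 3.07 ± 0.25, which is 8.41-fold. The difference between this list and the members was not tested.

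The comparison of T with PT asks whether the Kit lines differ from each other. Most members did not pass: 8 were called lower in T than in PT and 2 higher, where 2.70% of all probe sets were called lower and 5.67% higher (5.54% and 10.7% of the bright ones). By sign, 33 of the 48 were lower in T, and the median was -0.31, against -0.04 over all probe sets and 0.04 over the bright ones. Over all probe sets 67.7% of calls had T above PT, and 58.8% with quantile normalization, while 8 of the 10 calls among members had T below PT.

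The 8 genes lower in T were Nup85 (-1.45 ± 0.29, adjusted p = 0.0163), Ipo4 (-1.28 ± 0.32, 0.0386), Nup205 (-1.26 ± 0.24, 0.0135), Ipo9 (-1.23 ± 0.20, 0.00742), Nup188 (-1.09 ± 0.24, 0.0254), Kpna3 (-0.99 ± 0.21, 0.0198), Cse1l (-0.89 ± 0.22, 0.0391) and Nup54 (-0.85 ± 0.21, 0.0376). In folds, Nup85 was 2.72-fold, Nup205 2.40-fold and Ipo9 2.34-fold lower. They come from the outer and inner rings, the channel and the receptors, with both large inner ring paralogs among them. The 2 higher were Aaas (1.20 ± 0.23, adjusted p = 0.0147, 2.29-fold) and Nup37 (1.04 ± 0.22, adjusted p = 0.0221, 2.05-fold). The arrays of T and PT overlapped in none of these 10, and they did not overlap in 34 of the 48 members, against 50.1% of all probe sets and 66.8% of the bright ones, a share near the background.

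These calls rest on 2 arrays a group. Leaving out 1 array also lowers the degrees of freedom, and fewer T minus PT calls were then made over all probe sets too. A lost call therefore does not by itself show that the difference hangs on that array. Without PT replicate 2 none of the 8 was called lower, and without T replicate 2 or PT replicate 1 only 2 were and neither of the 2 higher genes was. The Aaas call did not hold without T replicate 2 (adjusted p = 0.0791) or PT replicate 1 (0.107), and Nup37 was lost without T replicate 2 (0.122), PT replicate 1 (0.13) and PT replicate 2 (0.0839). Nup85 was lost without T replicate 1 (0.0638) and PT replicate 2 (0.105), and Ipo9 without T replicate 2 (0.0507) and PT replicate 2 (0.0533). Nup205 (0.0739 to 0.0824) and Nup188 (0.089 to 0.151) were lost without T replicate 2 and without either PT array. Kpna3 (0.0624 to 0.125) was lost without any single T or PT array, and Ipo4 without T replicate 1 (-0.80, adjusted p = 0.121) and without either PT array (0.16 and 0.155). Nup54 was lost when any of the 6 arrays was left out (0.0616 to 0.162) and Cse1l when any but T replicate 1 was (0.0663 to 0.192). Both were also lost when the fit held only the T and PT arrays. The mVec arrays do not enter the T minus PT difference, only the estimate of its spread. Without either mVec array the difference stayed at -0.85 for Nup54 and -0.89 for Cse1l. Kpna6, not called in full (-0.84, adjusted p = 0.0538), was called without T replicate 1 (-1.07, adjusted p = 0.0383).

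**Figure D4:**
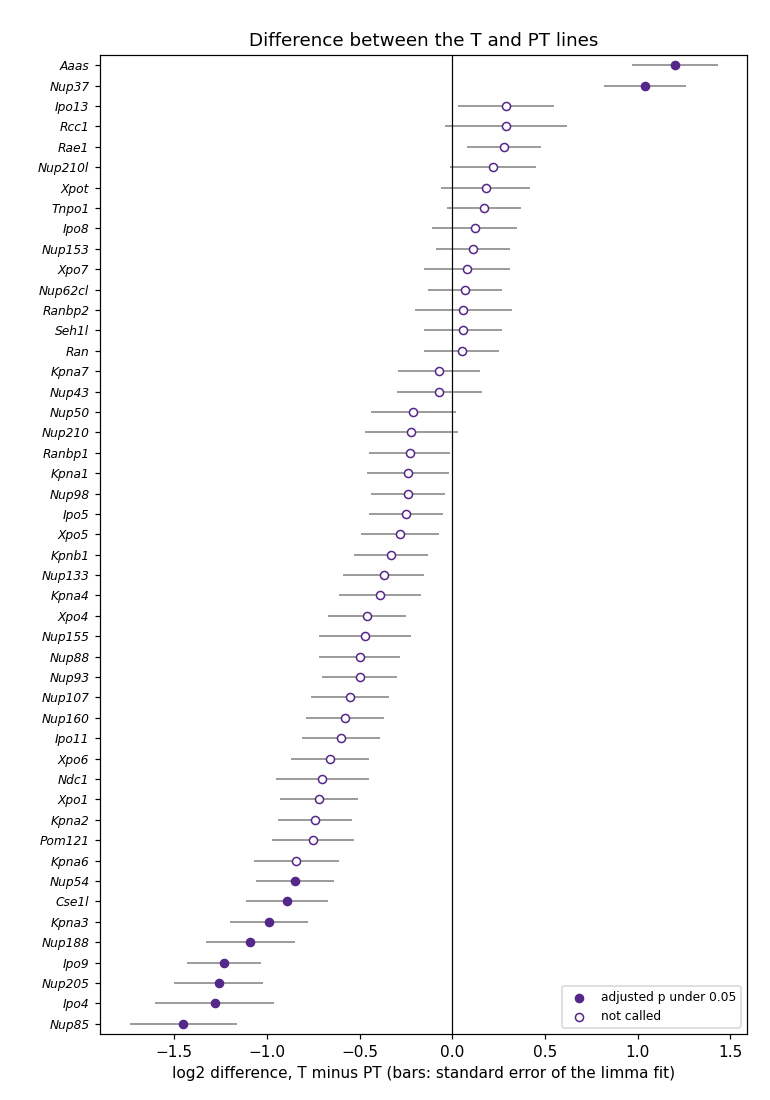
Log2 difference T minus PT of the 48 members, ordered by size, with bars for the standard error of the limma fit and filled symbols where the adjusted p was under 0.05. Values run from -1.45 (Nup85) to 1.20 (Aaas), and 10 symbols are filled, 8 of them at the lower end.

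The short mitosis list moved with this comparison too. Of its 7 genes, 4 (Cdc20, Aurka, Plk1 and Top2a) were called lower in T than in PT, and its median was -1.06. That is 57.1% lower, against 2.70% of all probe sets and 5.54% of the bright ones. The part of this list in the members' values was not tested. Of the further transport genes, the TREX-2 export complex subunit Pcid2 was called lower in T (-1.29 ± 0.23, 2.44-fold) and Rangrf higher (1.11 ± 0.28, at least 1.5-fold). These were the only calls among the 24 (4.17% each way). In the envelope list, Chmp7, which takes part in sealing the new envelope, and emerin (Emd) were called higher in T, by 1.22 ± 0.32 and 1.06 ± 0.25. They were 10.5% of its 19 genes, and 0 were lower. Of all probe sets 5.67% were called higher and 2.70% lower, and of the bright ones 10.7% and 5.54%. The shares of both lists are thus near or below that of bright probe sets.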

How the data were processed

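Total RNA of 6 cell line samples was measured on Affymetrix Clariom S arrays, per the labels' protocols. For every probe set the authors deposited a log2 value per array. The unit was read from the values, and the software, background correction and normalization were not given in the sources used here, though array medians lie close together (5.64 to 5.89). Of 28846 rows, 6640 controls were left out and 22206 gene probe sets were tested with no filter on low values. The platform table gives 19572 of them 1 symbol, 2634 none, and 0 several. Groups follow the labels. With R 4.3.3 and limma 3.58.1 (statmod 1.5.0 for the robust prior), 1 model with a mean per group was fitted to all 6 arrays (3 residual degrees of freedom, prior 6.36). P-values are two-sided and Benjamini-Hochberg adjusted over all probe sets of a comparison, with a call under 0.05, and the fit was tested on simulated data. With no array of a group above its limit, that group is at background. Where 1 group is at background the fold is given against the higher of the limit and its value ("at least"), and where both are, none is given. The number of arrays limits the precision, and depth in counts does not apply.

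The members and lists were chosen with earlier results of these data known. All 6 array values are given for Ran, Rcc1, Kpnb1, Kpna2, Xpo1, Cse1l, Nup107, Nup93, Nup153 and Nup210. They are also given for the 3 largest called rises and falls without overlap per comparison. Outside the members, up to 4 called transport or envelope genes per comparison are named, and Sec13, Ahctf1, Nupl2 and Tmem43 are named in addition. Ipo9 and other members were named for their calls. Pairing by replicate number was not used, because equal numbers did not deviate together (r = 0.0823, 0.0428 and 0.0396 across genes between the 3 pairs of groups). Alternatives changed the array scaling, background filter, variance prior, arrays in the fit, replicate block, probe set summary and threshold, and left out each array in turn.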

Additional observations from a re-analysis of the deposited data

Results flagged for a closer look

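The T and PT lines share the same comparison with mVec, and the test of the difference between their effects is T minus PT. It passed at an adjusted p under 0.05 for 10 members. Lower in T were Nup85 (-1.45), Ipo4 (-1.28), Nup205 (-1.26), Ipo9 (-1.23), Nup188 (-1.09), Kpna3 (-0.99), Cse1l (-0.89) and Nup54 (-0.85), and higher were Aaas (1.20) and Nup37 (1.04), all as log2 differences. Relative to mVec, Ipo9 is the member of the 10 whose values lie on opposite sides of 0 (-0.59 in T, not called, and 0.63 in PT, called), and Aaas is the one called in T and not in PT. With 2 arrays a group, no array could be tested as standing apart from its group.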

How the results depend on the processing

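Against mVec the counts of members called higher ran, over the alternatives, from 33 to 42 of 48 in T (main value 40) and from 37 to 44 in PT (main value 42), 34 to 40 and 38 to 42 with 1 array left out. Members called lower in T, 0 in the main analysis, came to 1, Ipo9, with quantile normalization, among probe sets above background and with the trended robust prior. The setting of probe sets above background tested 43 of the 48 members and adjusted p over 7836 probe sets. Against PT, the 2 members called higher in T became 0 at an adjusted p under 0.01 and 0 to 2 with 1 array left out, and the 8 called lower became 16 among probe sets above background, 15 with the trended robust prior, 1 at an adjusted p under 0.01, 5 with a difference of at least 1, and 0 to 6 with 1 array left out. With the replicate block, 41 and 42 members were higher than in mVec in T and PT, and 2 higher and 7 lower in T than in PT. Nup88 was gained in T, and the T minus PT call of Ipo4 was lost (-1.28, adjusted p = 0.0553). The numbers share no known culture, so this is no paired design. Median centring moved the median of all probe sets from 0.01 to 0.20 in T and from 0.08 to 0.27 in PT, and the share of calls that were higher from 52.3% to 62.3% and from 49.9% to 60.3%. No member that was called changed sign under either scaling. Averaging probe sets changed nothing, since each member has 1. Dim members are limited by background, and the others by 2 arrays a group.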
